A study of Mus musculus with 76 samples.

Results

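The genes described here are 9 pan-neuronal markers: *Tubb3*, *Stmn2*, *Map2*, *Nefl*, *Nefm* and *Gap43*, which belong to the neuronal cytoskeleton and growth cone, the RNA-binding genes *Rbfox3* and *Elavl4*, and *Uchl1*, a ubiquitin hydrolase abundant in neurons. They were chosen by name as general neuronal markers from the 56980 genes of the deposited count table. No rule on their values was used, but earlier results of these data were known. All 9 matched 1 identifier each and all 9 had counts in every group of cells. The cells came from male PomcCreERT2;tdTomato;Pomc-eGFP mice. In these animals, tamoxifen given at 12 weeks of age marks cells with an active *Pomc* promoter permanently with tdTomato, and eGFP follows the *Pomc* promoter at the time of recording. Patched cells of the arcuate nucleus with both colours are called Pomc+, and cells with tdTomato but no eGFP are called Ghost. Mice were fed chow (CD) or a high-fat diet (HFD) for 6 months, with 5 mice on each diet, and the cells number 23 Pomc+ CD, 15 Ghost CD, 19 Pomc+ HFD and 19 Ghost HFD cells. All groups carry the same alleles and all had tamoxifen, and the tracer marks only cells in which the *Pomc*-driven Cre was active at that time.

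A neuron is built around long processes, and several of these genes make or regulate their scaffold. Class III beta-tubulin (*Tubb3*) is a microtubule subunit found mainly in neurons, Map2 binds and stabilises dendritic microtubules, and stathmin-2 (*Stmn2*) binds tubulin and acts in axon growth and repair. The neurofilament light (*Nefl*) and medium (*Nefm*) chains are intermediate filament proteins that set axon calibre, and Gap43 is a membrane protein of growth cones and terminals. Rbfox3, known to histologists as NeuN, regulates splicing, and Elavl4 (HuD) binds and stabilises neuronal mRNAs. Because they mark neurons of nearly any kind, these genes ask whether a Ghost cell, which lacks the eGFP signal, still has the RNA of a neuron.

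Each library holds the RNA of 1 patched cell, and depth varied widely. The shallowest cell held 4057 counts, the median cell 322652 and the deepest 1452605. The median number of genes counted was 2540 in Pomc+ CD, 3199 in Ghost CD, 3501 in Pomc+ HFD and 2453 in Ghost HFD cells. No molecular identifiers were used, so amplified copies of 1 molecule are counted as separate reads. Share intervals below treat cells as independent draws, and intervals of pooled counts treat reads as independent. Neither kind covers the spread between mice. Those of pooled counts also leave out the spread between cells and are too narrow. The labels tie no cell to a mouse, so each group counts as 1 sample. Differences between groups are therefore given as values with no test, and levels are CPM, the counts of a gene scaled to a total of 1000000 per cell, unless stated. Fewer neuronal transcripts in a cell and a smaller neuronal part of what the pipette aspirated cannot be told apart. Of 12 other neuronal genes that are not among the 9, such as the synaptic gene *Snap25*, the median cell had 10 with a count in Pomc+ CD, 10 in Ghost CD, 9 in Pomc+ HFD and 8 in Ghost HFD cells.

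The markers of other cell types were also present. The summed CPM of 10 astrocyte genes averaged 1064 in Pomc+ cells (0 to 4550) and 403 in Ghost cells (0 to 2110), with all 10 genes counted under both labels. In at least 10 cells of a group these were *Aldoc*, *Slc1a2*, *Slc1a3*, *Gfap* and *S100b*. For 10 microglial genes the average was 276 in Pomc+ CD (0 to 2830), 236 in Ghost CD (0 to 2254), 1815 in Pomc+ HFD (0 to 13738) and 1942 in Ghost HFD cells (0 to 10233), with *Ctss* in at least 10 Ghost HFD cells. *P2ry12* had no count in either CD group. For 10 oligodendrocyte genes, *Mbp* and *Cnp* among them, it was 488 in Pomc+ (median 202, 0 to 5911) and 368 in Ghost cells (median 280, 0 to 1292). The averages of Pomc+ and Ghost cells were 266 and 329 on CD, and 756 and 398 on HFD. *Mog* and *Opalin* were at 0 in Ghost cells. Endothelial genes averaged 4.06 and 9.12 CPM in sum, and the 8 tanycyte and ependymal genes 132 and 71.9, mostly from *Vim*, with *Rax* at 0 throughout. The 12 progenitor genes summed to 70.2 CPM in Pomc+ and 82.4 in Ghost cells, with *Neurog3* and *Top2a* at 0 under both labels. The glial sum over astrocyte, oligodendrocyte and microglial genes exceeded the sum of the 12 other neuronal genes in 5 of 23 Pomc+ CD, 5 of 15 Ghost CD, 9 of 19 Pomc+ HFD and 10 of 19 Ghost HFD cells. The part of this non-neuronal RNA in the results below was not tested, but each ratio was also computed without those cells.

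Nearly every cell held RNA of several of the 9 markers, whatever its label or diet. Of 9 markers, the median cell had a count of 7 in Pomc+ CD (0 to 9), 6 in Ghost CD (1 to 9), 7 in Pomc+ HFD (2 to 9) and 6 in Ghost HFD (2 to 9). At least 5 markers were counted in 32 of 42 Pomc+ cells and in 24 of 34 Ghost cells. All 9 were counted in 10 Pomc+ cells and 3 Ghost cells. When each cell was thinned to 40000 counts, which leaves out 8 shallower cells, the medians became 7 in Pomc+ CD, 6.5 in Ghost CD, 6 in Pomc+ HFD and 6 in Ghost HFD cells. Over both diets the thinned medians were still 7 in Pomc+ and 6 in Ghost cells. On HFD the medians became equal, but the means were 6.06 and 5.29 markers after thinning and 6.47 and 5.63 before. Thinning did not equalise the number of genes counted. Its median in thinned cells was 2462 in Pomc+ CD, 2136 in Ghost CD, 2544.5 in Pomc+ HFD and 1964 in Ghost HFD. The part of this in the shares at equal depth below was not tested. The number of markers counted went with the number of genes counted in the cell, with a Spearman's rho of 0.78 over 76 cells, and 0.70 over the 68 thinned cells. These points share total depth, so the relation is a description of these libraries.

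**Figure D1:**
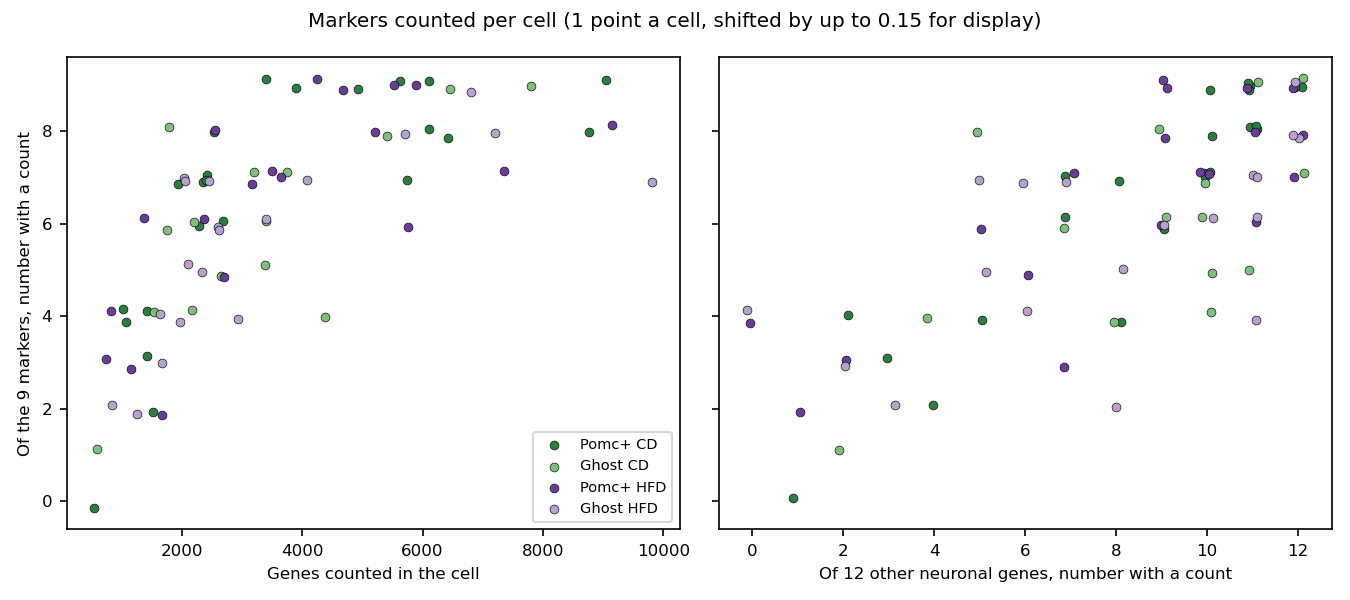
Number of the 9 markers with a count in each cell (vertical axis, 0 to 9) against the number of genes counted in that cell (left) and against how many of 12 other neuronal genes had a count (right), 1 point a cell coloured by group. Most cells with few markers lie at the left of both panels, and all 4 groups reach 9 markers.

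Of 76 cells, 6 had 2 or fewer of the markers, and 5 of those had more glial than other neuronal marker CPM. Pomc+ CD cell 706 had none of the 9 in 85211 counts, but it also had only 548 genes counted, 1 of the 12 other neuronal genes and 223 CPM over 12 housekeeping genes, against a group median of 8331. A count of 0 allows up to 3 counts of each gene in that library. Ghost CD cell 712 had 1 marker, *Elavl4*, in 4057 counts. Cells with 2 markers were Pomc+ CD cell 689, Ghost HFD cells 655 and 713, and Pomc+ HFD cell 650. Cell 650 held 8565 CPM over the microglial genes, and cell 713 held 5994, above the average of their groups. Cell 655 was deep, with 328931 counts, and had 8 of the 12 other neuronal genes, although only 12.2 CPM fell on the 9 markers.

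Comparing Ghost with Pomc+ cells over both diets, the markers did not share a direction. *Nefl* was 0.37 times as high in Ghost cells, *Nefm* 0.52, *Tubb3* 0.64 and *Map2* 0.66, whereas *Stmn2*, *Rbfox3* and *Gap43* lay between 0.82 and 1.03 times, and *Uchl1* and *Elavl4* were at 1.22 and 1.34. The median log2 ratio over the 9 was -0.28, beside -0.15 over the 12010 genes with counts in both groups and at least 5 counts in at least 3 cells. Of the 9 markers 1, *Nefl*, passed 2-fold, where 41.2% of those genes did in either direction, and 6 were lower, where 55.6% of genes were. The summed CPM of the 9 averaged 2460 in Pomc+ cells (median 2375, 0 to 6473) and 2222 in Ghost cells (median 2219, 12.2 to 5159). Within a diet, the medians of Pomc+ and Ghost cells were 2559 and 1546 on CD, but 2143 and 2362 on HFD. The means were 2607 and 2289 on CD, and 2280 and 2168 on HFD. Divided by the housekeeping sum of the same cell, the summed CPM of the 9 had a median of 0.25 in Pomc+ and 0.249 in Ghost cells over both diets.

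Scaling changes some of these directions. In the authors' normalized counts the median log2 ratio of all genes was -0.64 in place of -0.15, and 8 of 9 markers were lower in Ghost cells in place of 6. Under that scaling *Uchl1* was at 0.93 and *Gap43* at 0.65 times the Pomc+ level, and *Elavl4* at 1.01. Relative to the median gene, *Uchl1* stood 0.44 higher on the log2 scale in CPM and 0.53 higher in normalized counts, and *Elavl4* 0.58 and 0.66 higher. *Nefl* stood lower by both, at -1.30 and -0.79, as did *Map2* at -0.44 and -0.29. The same held for *Nefm* at -0.79 and -0.17 and *Tubb3* at -0.49 and -0.18.

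**Figure D2:**
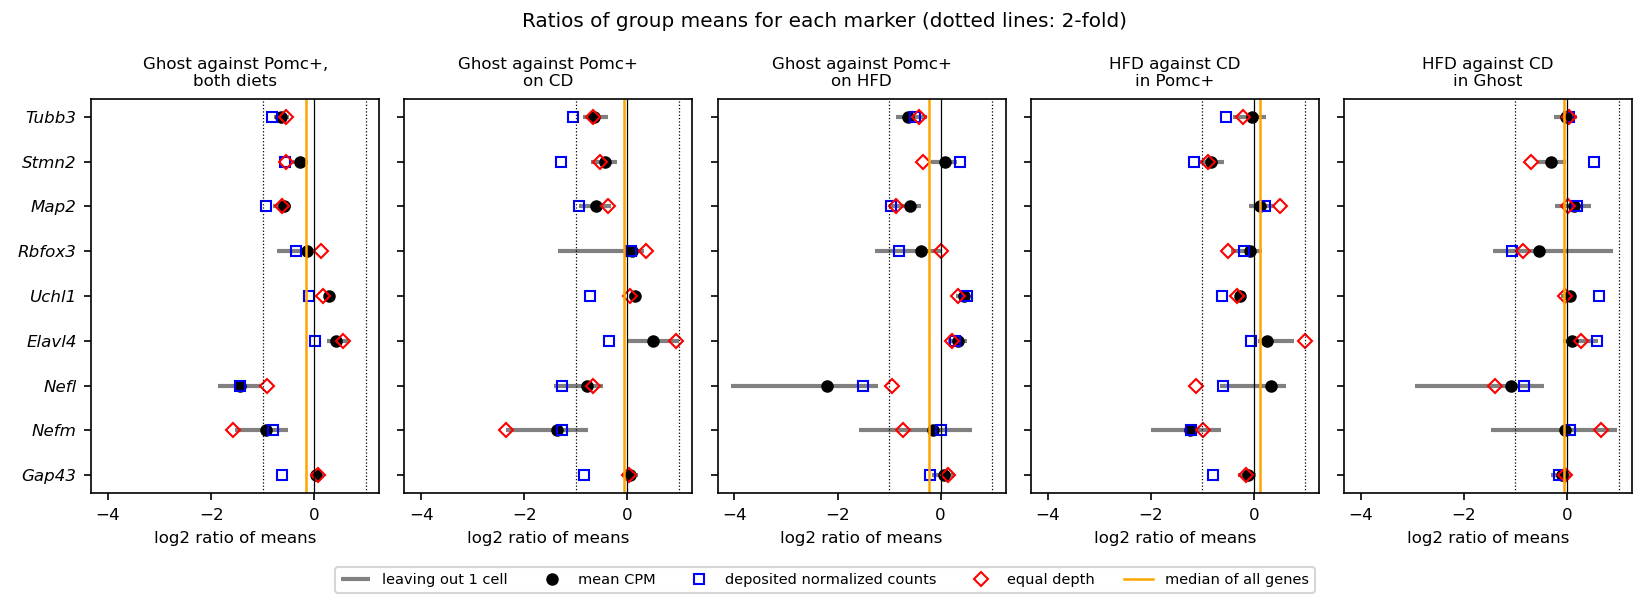
log2 ratio of group means for each of the 9 markers in 5 comparisons (horizontal axis, 0 is no difference, dotted lines 2-fold), by mean CPM (filled circles), by the deposited normalized counts (squares) and after thinning each cell to 40000 counts (diamonds), with grey lines for the range when 1 cell is left out and an orange line for the median of all genes. *Nefl* is left of 0 by every measure in the 3 comparisons of Ghost with Pomc+ cells, and *Elavl4* and *Uchl1* lie right of 0 by mean CPM, but left of it by normalized counts on CD and, for *Uchl1*, over both diets.

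Of the microtubule genes, *Tubb3* was lower in Ghost cells on both diets. Its median was 327 CPM in Pomc+ CD (0 to 2166), 219 in Ghost CD (0 to 827), 295 in Pomc+ HFD (0 to 2214) and 233 in Ghost HFD cells (0 to 1075). The groups overlapped over most of their range, and the highest cells were Pomc+ cells 645 and 666. The ratio of means was 0.64 on CD and 0.65 on HFD, and 0.55 to 0.84 on HFD as cells were left out in turn. The share of cells with a count hardly separated the labels, at 35 of 42 Pomc+ (83.3%, exact 95% interval 68.6 to 93.0) and 27 of 34 Ghost cells (79.4%, 62.1 to 91.3). Most cells of both labels thus held *Tubb3* RNA. Pooling all counts of a label gave 519 CPM in Pomc+ (exact Poisson interval 509 to 530) and 295 in Ghost cells (286 to 305).

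*Map2* had ratios of a similar size. Its median was 73.6 CPM in Pomc+ CD (0 to 916), 41.1 in Ghost CD (0 to 453), 130 in Pomc+ HFD (0 to 714) and 54.8 in Ghost HFD cells (0 to 676). The groups overlapped from 0 to 453 CPM, the highest Ghost CD value. The ratio of means was 0.65 on CD and 0.66 on HFD, while 34 of 42 Pomc+ cells (81.0%) and 27 of 34 Ghost cells (79.4%) had a count. An antisense gene, *Gm10558*, shares 124 exon bases with *Map2* and had counts in 12 cells, and a kit that does not mark strand cannot assign reads there.

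*Stmn2* depended on diet and scaling. On CD its median was 310 CPM in Pomc+ (0 to 2083) and 126 in Ghost cells (0 to 1230), with a ratio of means of 0.74. On HFD the medians were 190 (0 to 984) and 73 (0 to 1175), but the ratio of means was 1.06, or 0.79 at equal depth and 1.30 in normalized counts. The ratio was 0.88 without Ghost HFD cell 646, so the direction of the mean on HFD rested on the measure and on single cells, where 16 of 19 Pomc+ and 13 of 19 Ghost cells had a count.

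*Nefl* had the lowest ratio of mean CPM of the 9 over both diets and on HFD, and *Nefm* on CD. *Nefl* had a count in 13 of 23 Pomc+ CD (56.5%, 34.5 to 76.8), 4 of 15 Ghost CD (26.7%, 7.79 to 55.1), 9 of 19 Pomc+ HFD (47.4%, 24.4 to 71.1) and 4 of 19 Ghost HFD cells (21.1%, 6.05 to 45.6). Over both diets that is 22 of 42 Pomc+ cells (52.4%, 36.4 to 68) and 8 of 34 Ghost cells (23.5%, 10.7 to 41.2). With at least 5 counts required, the numbers were 20 and 7. At equal depth they were 17 of 39 (43.6%) and 8 of 29 (27.6%). Over 20 thinning draws they ran from 16 to 20 and from 7 to 8. The median number of all genes counted was also lower in thinned Ghost cells, at 2037 against 2464 in Pomc+ cells. On HFD the draw gave 5 of 18 Pomc+ against 4 of 17 Ghost cells, the fewest Pomc+ cells of any draw, and the draws ran from 5 to 8 and from 3 to 4. Among cells with a count, the median over both diets was 149 CPM in Pomc+ and 178 CPM in Ghost cells. On CD these medians were 221 and 226 CPM, but on HFD they were 139 and 53.7 CPM. Ghost cells with *Nefl* RNA were thus fewer on both diets, and their median was lower on HFD only. Each Ghost median within a diet rests on 4 cells.

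The size of the mean difference for *Nefl* rested on few cells. On CD the mean was 114 CPM in Pomc+ (median 30.3, 0 to 580) and 66.4 in Ghost cells (median 0, 0 to 401), a ratio of 0.58. On HFD it was 143 (median 0, 0 to 1424) and 31.2 (median 0, 0 to 440), a ratio of 0.22. Pomc+ HFD cell 693, with 15 counts of *Nefl* in 10534, carried 52.2% of its group's sum, and the ratio was 0.43 without it. Ghost HFD cell 653 carried 74.1% of its group, and the ratio was 0.06 without that cell. Ghost stayed below Pomc+ with any cell left out on either diet, in normalized counts (0.42 and 0.35), and without the cells of high glial RNA (0.43 and 0.32). In the 8 runs of cell numbers that alternate between the diets, each with cells of both labels, the share of cells with *Nefl* was lower in Ghost cells in 6, and the ratio of means within runs was 0.19. That ratio was 0.65 without the run whose 1 Pomc+ cell is cell 693.

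*Nefm* was counted in 10 of 23 Pomc+ CD, 3 of 15 Ghost CD, 9 of 19 Pomc+ HFD and 6 of 19 Ghost HFD cells. The share over both diets was 45.2% (29.8 to 61.3) in Pomc+ and 26.5% (12.9 to 44.4) in Ghost cells, and 41% and 20.7% at equal depth. On CD the mean was 89.7 CPM in Pomc+ (0 to 761) and 35 in Ghost cells (0 to 281), a ratio of 0.39, which was 0.59 without Pomc+ CD cell 666 and 0.19 without Ghost CD cell 709. On HFD it was 37.9 (0 to 318) and 34.2 (0 to 422), a ratio of 0.90, which was 0.33 without Ghost HFD cell 671 and 1.53 without Pomc+ HFD cell 644. The median was 0 in all 4 groups, and on HFD single cells decided which label was higher.

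Taking both chains, 16 of 42 Pomc+ cells had *Nefl* and *Nefm*, 6 had *Nefl* alone, 3 had *Nefm* alone and 17 had neither. Of 34 Ghost cells, 4 had both, 4 had *Nefl* alone, 5 had *Nefm* alone and 21 had neither. At least 1 chain was counted in 59.5% of Pomc+ (43.3 to 74.4) and 38.2% of Ghost cells (22.2 to 56.4), or 59% and 37.9% at equal depth. The genes are neighbours on mouse chromosome 14 (GRCm38), *Nefl* at chr14:68083863-68089095 on the plus strand and *Nefm* at chr14:68082590-68124846 on the minus strand. In GENCODE M21 an exon of *Nefm* covers 1108 exon bases of *Nefl* at chr14:68083863-68084970, where reads without strand could not be told apart. Over both diets, the partners *Nefh* and *Ina* were not counted in a smaller share of Ghost cells, but on CD *Ina* was, in 9 of 15 Ghost against 15 of 23 Pomc+ cells. The counts that follow are over both diets. *Nefh*, the heavy chain, had counts in 10 of 42 Pomc+ and 11 of 34 Ghost cells. *Ina*, alpha-internexin, had counts in 27 of 42 and 23 of 34, with a mean of 86.7 CPM in Pomc+ (median 57.6, 0 to 435) and 168 in Ghost cells (median 63.2, 0 to 1082).

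**Figure D3:**
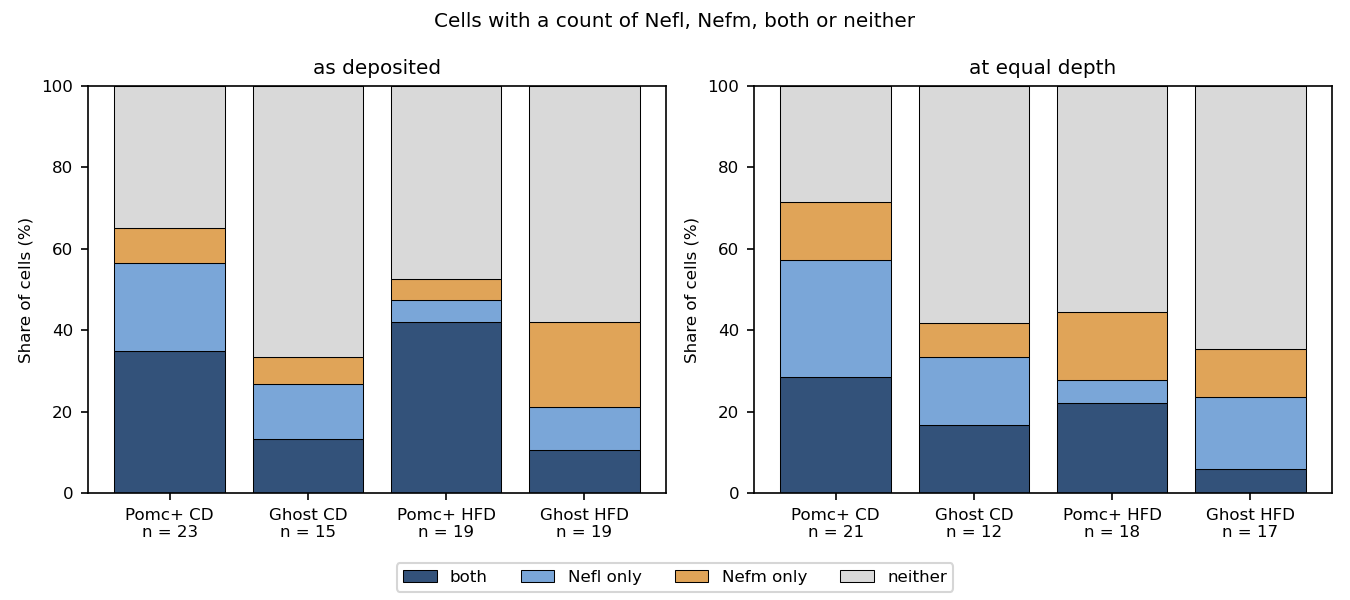
Share of cells (percent, stacked to 100) with a count of *Nefl* and *Nefm*, of only 1 of them or of neither, in each group, as deposited (left) and after thinning to 40000 counts (right). Both genes were counted together in 8 of 23 Pomc+ CD, 2 of 15 Ghost CD, 8 of 19 Pomc+ HFD and 2 of 19 Ghost HFD cells as deposited.

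*Gap43* and *Uchl1* were counted in most cells of every group, and their mean CPM differed by less than 2-fold between labels on either diet. *Gap43* had a median of 435 CPM in Pomc+ CD (0 to 1831), 505 in Ghost CD (0 to 1378), 246 in Pomc+ HFD (0 to 1745) and 326 in Ghost HFD cells (0 to 1996). Its ratio of mean CPM was 1.03 on CD and 1.04 on HFD, but 0.56 and 0.87 in normalized counts. *Uchl1* had a median of 482 CPM in Pomc+ CD (0 to 1281), 469 in Ghost CD (0 to 1206), 458.3 in Pomc+ HFD (0 to 922) and 504 in Ghost HFD cells (0 to 1705). The ranges overlapped over most of their width, and the medians lay between 458.3 and 504 CPM.

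The mean of *Uchl1* was 1.11 times as high in Ghost as in Pomc+ cells on CD and 1.38 times on HFD, with 1.23 to 1.47 on HFD as cells were left out, but 0.60 and 1.43 in normalized counts. *Uchl1* was counted in 38 of 42 Pomc+ cells (90.5%, 77.4 to 97.3) and 32 of 34 Ghost cells (94.1%, 80.3 to 99.3). *Gap43* was counted in 35 of 42 (83.3%, 68.6 to 93.0) and 29 of 34 (85.3%, 68.9 to 95). The antisense gene *Uchl1os* shares 295 exon bases with *Uchl1* and had 21 counts in all cells together, so few reads there were assigned to it.

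Of the RNA-binding genes, *Rbfox3* was counted less often than *Elavl4* over both diets. It was counted in 15 of 23 Pomc+ CD (65.2%, 42.7 to 83.6), 10 of 15 Ghost CD (66.7%, 38.4 to 88.2), 10 of 19 Pomc+ HFD (52.6%, 28.9 to 75.6) and 5 of 19 Ghost HFD cells (26.3%, 9.15 to 51.2). At equal depth the shares were 61.9%, 75%, 50% and 23.5%, but over 20 draws they ran from 52.4% to 66.7%, from 41.7% to 75%, from 33.3% to 50% and from 17.6% to 29.4%. Ghost HFD cells were the lowest as deposited and in the range of draws, although the intervals overlap those of the other groups.

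Single cells set the mean of *Rbfox3*, which was 74.5 CPM in Pomc+ CD (median 45.1, 0 to 312), 79.7 in Ghost CD (median 16.2, 0 to 785), 71.1 in Pomc+ HFD (median 1.06, 0 to 364) and 54.8 in Ghost HFD cells (median 0, 0 to 512). Ghost CD cell 684, with 47 counts, held 65.6% of its group's sum, and Ghost HFD cell 694, with 35 counts, held 49.1%. The ratio of Ghost to Pomc+ means on CD was 1.07, and 0.39 without cell 684. On HFD it was 0.77, and 0.41 without cell 694. Pooling counts gave 83.2 CPM in Pomc+ (79.1 to 87.4) and 33.5 in Ghost cells (30.5 to 36.6).

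*Elavl4* was higher in Ghost cells by mean CPM on both diets, but lower on CD in normalized counts. It had a median of 39.7 CPM in Pomc+ CD (0 to 1058), 3.04 in Ghost CD (0 to 986), 42.3 in Pomc+ HFD (0 to 508) and 183 in Ghost HFD cells (0 to 665). The ratio of means was 1.40 on CD and 1.26 on HFD, but 0.78 and 1.21 in normalized counts. The highest Ghost CD value came from 4 counts in cell 712, and without that cell the CD ratio was 0.995, whereas without Pomc+ CD cell 701 it was 2.01. *Elavl4* was counted in 29 of 42 Pomc+ (69%, 52.9 to 82.4) and 23 of 34 Ghost cells (67.6%, 49.5 to 82.6). By group that was 15 of 23 Pomc+ CD, 8 of 15 Ghost CD, 14 of 19 Pomc+ HFD and 15 of 19 Ghost HFD cells.

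**Figure D4:**
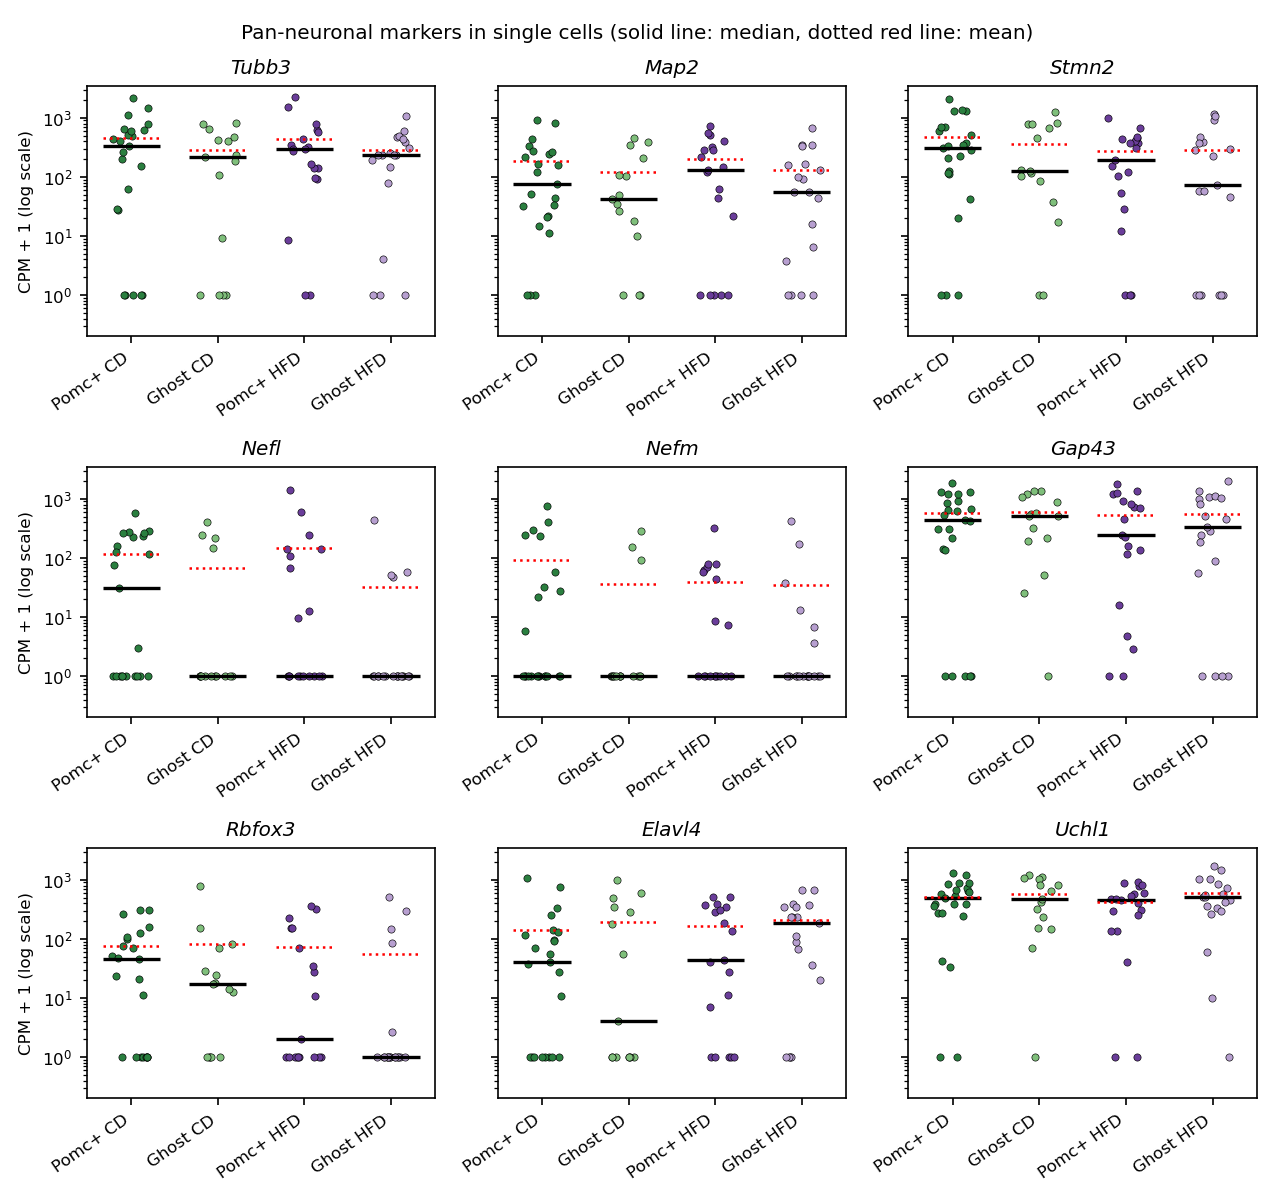
CPM + 1 on a log scale for each of the 9 markers in every cell, by group, with the median as a solid line and the mean as a dotted line; points on the lowest line have no count. *Uchl1* and *Gap43* are counted in most cells of all groups, whereas most Ghost cells lie at 0 for *Nefl* and *Nefm*, and 14 of 19 Ghost HFD cells for *Rbfox3*.

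**Figure D5:**
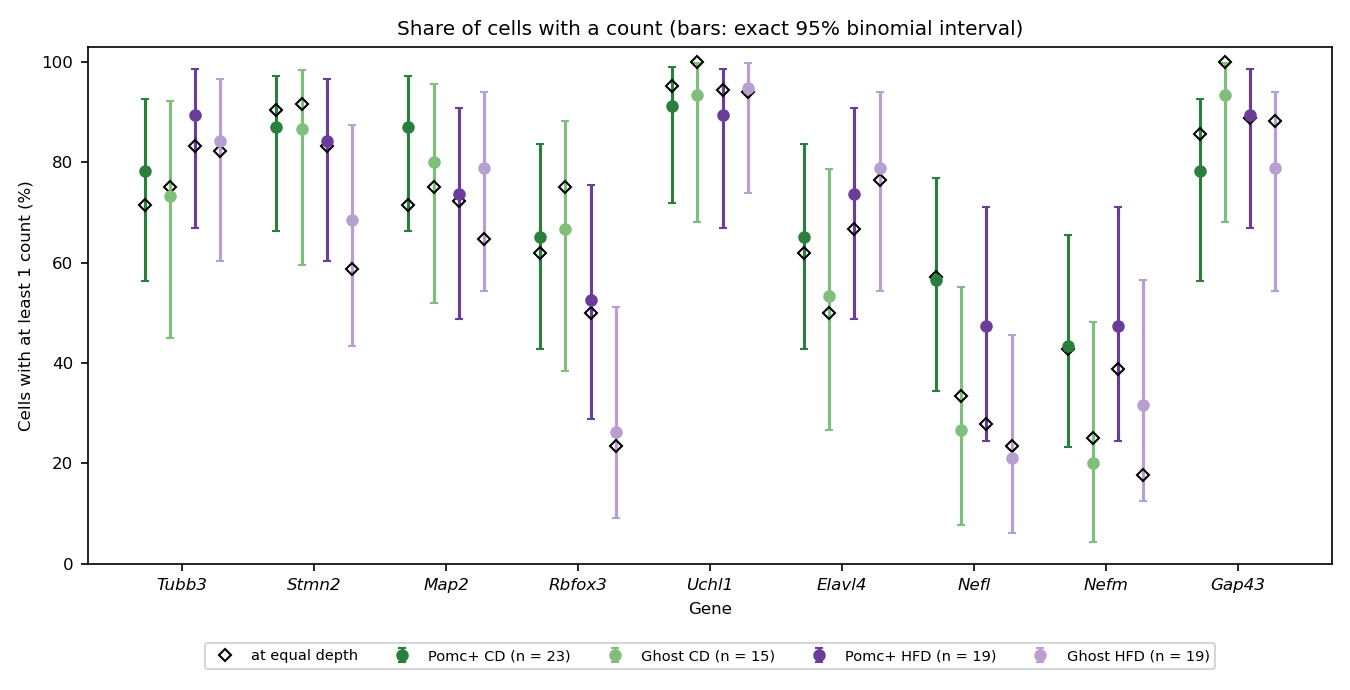
Percent of cells with at least 1 count of each marker by group (circles, with exact 95% binomial bars) and after thinning to 40000 counts (diamonds). *Nefl* runs from 56.5% in Pomc+ CD to 21.1% in Ghost HFD cells, and *Rbfox3* from 66.7% in Ghost CD to 26.3% in Ghost HFD cells.

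Diet was compared within each label. In Pomc+ cells, the median log2 ratio of HFD to CD over the 9 was -0.07, beside 0.12 over 11369 genes. Of 9 markers 6 were lower on HFD, or 8 in normalized counts, where 46% of genes were lower by mean CPM. Only *Nefm* passed 2-fold by mean CPM, at 0.42, where 47.8% of genes did, and it was 0.64 without Pomc+ CD cell 666. *Stmn2* was next at 0.56, with 0.48 to 0.67 as cells were left out and 0.45 in normalized counts. *Nefl* was at 1.26, but at 0.64 without Pomc+ HFD cell 693, so its direction rested on that cell. The other 6 lay between 0.83 and 1.2, although *Elavl4* was 1.99 at equal depth, 1.87 by summed counts and 1.71 without Pomc+ CD cell 701, and *Gap43* was 0.58 in normalized counts.

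In Ghost cells, the median log2 ratio of HFD to CD was -0.03, beside -0.07 over 10413 genes. Of 9 markers 6 were lower on HFD, or 3 in normalized counts, where 51.9% of genes were lower by mean CPM. Without the cells of high glial RNA 1 was lower and 8 were higher, with a median log2 ratio of 0.37. Only *Nefl* passed 2-fold by mean CPM, at 0.47, where 53.6% of genes did. This value was 0.13 without Ghost HFD cell 653, 0.73 without Ghost CD cell 684 and 1.02 without the cells of high glial RNA, so no diet difference of *Nefl* in Ghost cells can be read from it. *Rbfox3* was at 0.69, but at 1.87 without Ghost CD cell 684 and 2.19 without the cells of high glial RNA. *Stmn2* was at 0.81, but at 1.43 in normalized counts. *Tubb3*, *Map2*, *Uchl1*, *Elavl4*, *Nefm* and *Gap43* lay between 0.94 and 1.10, although *Nefm* was 0.36 without Ghost HFD cell 671 and 1.96 without Ghost CD cell 709. *Elavl4* was 1.52 without Ghost CD cell 712 and 1.49 in normalized counts, but 0.99 without the genes counted in every cell. *Uchl1* was 1.54 in normalized counts, but 0.97 at equal depth. *Map2* was 1.61 by summed counts, but 0.85 without Ghost HFD cell 643. The comparisons of diet share their cells with those of label. Whether the label differences change with diet could not be tested with 1 sample a group. Within 1 diet, the Ghost to Pomc+ log2 ratio had a median of -0.43 over the 9 on CD, beside -0.06 over all genes, with 5 markers lower (8 in normalized counts) where 51.9% of genes were, and *Nefm* past 2-fold against 50.8% of genes. On HFD it was -0.15, beside -0.23, with 5 markers lower where 56.4% of genes were, and *Nefl* past 2-fold against 51.8% of genes.

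By mean CPM per kilobase of exon, the order of the markers was alike in all 4 groups at its top. Mean CPM per kilobase of *Gap43* was 373 in Pomc+ CD, 386 in Ghost CD, 347 in Pomc+ HFD and 362 in Ghost HFD cells. *Uchl1* followed at 261 to 359, *Tubb3* at 151 to 240 and *Stmn2* at 48.3 to 85.5. In Ghost HFD cells the means were 309 for *Gap43* and 321 for *Uchl1* without the highest cell of each gene. By median, *Uchl1* was above *Gap43* in Pomc+ CD (295 and 286), Pomc+ HFD (281 and 161) and Ghost HFD cells (309 and 214). In Ghost CD cells it was below, at 287 and 332. The values that follow are means. In Pomc+ cells *Nefl* followed *Stmn2*, at 33.7 on CD and 42.4 on HFD, ahead of *Elavl4*. Without cell 693 it was 21.4 on HFD, below *Elavl4* at 30.8. In Ghost cells *Elavl4* followed *Stmn2*, at 36.1 and 38.8, ahead of *Nefl* at 19.6 and 9.24. *Rbfox3*, *Map2* and *Nefm* lay between 5.92 and 15.5, with *Nefl* of Ghost HFD cells among them, and the spread between cells exceeds the gaps between these genes. Exon lengths run from 1.52 kilobases for *Gap43* to 16.4 for *Map2* in GENCODE M21, so a gene with long rare isoforms is set too low.

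The wider neuronal cytoskeleton did not share a direction. Of 18 related genes (tubulins, microtubule-associated proteins, stathmins, intermediate filaments and collapsin response mediators), 17 had counts under both labels. Of these 17, 10 were lower and 7 higher in Ghost cells, where 55.6% of all genes were lower. None passed 2-fold, where 41.2% of all genes did. The median log2 ratio of the 17 was -0.07, and the 18 genes summed to 3746 CPM in Pomc+ and 3712 in Ghost cells. Within a diet the values differed. On CD the median was 0.30, with 5 lower and 12 higher, where 51.9% of all genes were lower. There 1 was past 2-fold lower and 1 higher, where 50.8% of genes passed. On HFD the median was -0.40, with 10 lower and 7 higher, where 56.4% of genes were lower. There 3 were past 2-fold lower and 2 higher, where 51.8% of genes passed. Over both diets the highest ratio was that of *Ina* at 1.94, with 2.16 on CD and 1.83 on HFD, and it was 1.85 in normalized counts. The CD ratio of *Ina* was 1.54 without Ghost CD cell 711. Its CD median was lower in Ghost cells, at 44.3 against 58.5 CPM in Pomc+ cells. The lowest ratio over both diets was that of *Dpysl3*, a collapsin response mediator, at 0.65, and 0.22 without Ghost CD cell 668. On HFD the extremes were *Dpysl3* at 0.21 (0.11 to 0.34 as cells were left out) and *Stmn4* at 3.22 (1.73 without Ghost HFD cell 657), and on CD *Crmp1* at 0.46 and *Ina*. Between diets, *Stmn4* was lowest at 0.47 and *Mapt* highest at 1.32 in Pomc+ cells. In Ghost cells these were *Dpysl3* at 0.21 and *Crmp1* at 3.45, but *Dpysl3* was 1.37 without Ghost CD cell 668, so its direction rested on that cell.

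Of 10 related RNA-binding genes, 5 were lower and 5 higher in Ghost cells, where 55.6% of all genes were lower. The median log2 ratio of the 10 was -0.06. On CD it was 0.37, with 3 lower and 7 higher, where 51.9% of all genes were lower. On HFD it was -0.54, with 6 lower and 4 higher, where 56.4% of all genes were lower. Over both diets the lowest was *Nova1*, a splicing regulator, at 0.39 (0.69 without the 5 cells under 1000 genes, 0.68 without Pomc+ HFD cell 639). The highest was *Elavl2*, a paralogue of *Elavl4*, at 4.84. *Elavl2* was counted in 9 of 42 Pomc+ cells (mean 7.79 CPM, 0 to 168) and 14 of 34 Ghost cells (mean 37.7, 0 to 480), with 14.2 times on CD and 1.6 on HFD. Without Ghost CD cell 668 the CD ratio was 7.25. At equal depth the HFD ratio of *Elavl2* was 0.40, and it was 0.97 without Ghost HFD cell 657 and 5.76 without Pomc+ HFD cell 644. *Nova2* was lowest on CD at 0.46 (0.16 to 0.73 as cells were left out) and highest between diets in Ghost cells at 1.99 (1.17 to 5.64), and *Elavl3* lowest between diets in Pomc+ cells at 0.68.

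*Rbfox1*, a paralogue of *Rbfox3*, was counted in 9 of 23 Pomc+ CD, 11 of 15 Ghost CD, 7 of 19 Pomc+ HFD and 2 of 19 Ghost HFD cells. *Rbfox1* and *Rbfox3* were thus counted least often in Ghost HFD cells, but *Rbfox2*, named after its values were seen, was not, with counts in 13, 7, 7 and 8 cells of the same groups. The ratio of Ghost to Pomc+ means of *Rbfox1* was 0.07 on HFD, where 1 Pomc+ cell held 52.1% of its group's sum. It was 0.03 to 0.14 as cells were left out. Between diets it was 0.16 in Ghost and 4.32 in Pomc+ cells, or 0.07 without Ghost HFD cell 637 and 2.18 without Pomc+ HFD cell 641.

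The 12 other neuronal genes were lower in Ghost cells by a median log2 ratio of -0.33. Of them 10 were lower and 2 higher, where 55.6% of all genes were lower, and 2 passed 2-fold, where 41.2% did. The sum of the 12 averaged 2764 CPM in Pomc+ and 2115 in Ghost cells. *Snap25*, a vesicle fusion protein, was counted in 37 of 42 Pomc+ (mean 763 CPM, median 558) and 30 of 34 Ghost cells (mean 541, median 486). The 12 housekeeping genes had a median of -0.04 and summed to 9155 and 8905 CPM. The 10 astrocyte genes were all lower in Ghost cells over both diets, where 55.6% of all genes were. Of these 10, 6 were past 2-fold, where 24.8% of all genes were 2-fold or more lower, and *Aldoc* was at 0.34. The ratio of the astrocyte sums was 0.56 on CD, with 7 genes lower and 1 higher of 8 with a ratio, and 0.25 on HFD.

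Over the 68 thinned cells, most pairs of markers were weakly and positively correlated. Spearman's rho was above 0 in 34 of 36 pairs, with a median of 0.30. The highest was 0.61 for *Stmn2* and *Uchl1*, then 0.56 for *Uchl1* and *Gap43* and 0.52 for *Nefl* and *Gap43*, and *Nefl* and *Nefm* had 0.35. *Map2* stood apart, at -0.03 with *Uchl1*, -0.02 with *Nefm* and 0.06 with *Tubb3*. Among 1162 other genes counted in at least 50% of those cells, the 5 most like the mean log2 level of the 9 markers were *Hspa8* (rho 0.66), *Mapre2* (0.65), *Snrpn* (0.65), *Prkar1a* (0.64) and *Ywhab* (0.64). All points share the gene content and RNA quality of each library, so these values are a description only.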

How the data were processed

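Patch-seq libraries of 76 arcuate cells were analysed. The authors aspirated each cell, made cDNA with SMART-Seq and libraries with Nextera XT, and deposited raw counts per Ensembl gene, as whole numbers without molecular identifiers. They also deposited a normalized signal: dividing it by the count gives the same factor for all genes of a cell, which was checked in the values. The submitters' processing notes name cutadapt 2.10, STAR 2.7.5a, DESeq2 and GRCm38/mm10. The counting program and the annotation version are not given in the sources used here. Symbols matched 52073 of 56980 identifiers, and identifiers without a symbol held 36.6% of counts. Coordinates and exon lengths are from GENCODE M21 (GRCm38), which may differ from the annotation used for counting.

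CPM was computed per cell over all genes. Groups are the label and diet of each cell, taken from the sample titles. As no label names a mouse, a group is 1 sample and no test was run. Values are means, medians and ranges over cells, shares with exact Clopper-Pearson intervals (95%) and pooled counts with exact Poisson intervals. The main values use every cell. Cells were patched by hand, so no doublet caller was run. A difference past 2-fold in mean CPM was counted beside the same count over genes that reached 5 counts in 3 or more cells. Cells were thinned to 40000 counts with a fixed seed, and the first of 20 draws is given. Chosen after seeing the data were the ratios without cells with more glial than neuronal marker CPM, those of named related genes with each cell left out, and those within runs of cell numbers with each run left out. The code was tested on simulated data. Python 3.11.15, NumPy 2.4.6, pandas 2.3.3, SciPy 1.17.1 and matplotlib 3.10.9 were used.

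The 9 markers and all lists were chosen with earlier results of these data known. Named besides the 9 are the related gene with the highest and the lowest ratio in each comparison among those counted in at least 10 cells, marker genes of other cell types counted in at least 10 cells of a group, and the 5 genes most like the markers. Some genes that this rule names are not reported here. *Nefh*, *Rbfox2*, *Snap25* and genes at 0 were named after their values were seen. Sequences of promoters or proteins were not used here.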

Additional observations from a re-analysis of the deposited data

How the results depend on the processing

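With each group 1 sample, the alternatives bear on values and not on tests. A ratio or count was taken as changed where it moved by more than 1.5-fold. Over all alternatives together, 401 of 491 values for single markers were not changed by that measure. For 26 of the 45 ratios at least 1 alternative lay on the other side of 1, in 12 of them normalized counts and in 11 the ratio without cells of high glial RNA. Among ratios past 2-fold this held for *Nefl* of HFD against CD in Ghost cells, with a log2 ratio of 0.0305 without cells of high glial RNA, where fewer cells remained. It also held for *Dpysl3* in that comparison, which ran from a log2 ratio of -3.14 to 0.454 as cells were left out. Without cells of high glial RNA, that comparison had 8 of 9 markers higher on HFD. The number of markers past 2-fold, 1 in each comparison, was the value that changed most. For Ghost against Pomc+ over both diets it was 2 without the genes counted in every cell and by summed counts, and 3 by medians, by mean log2(CPM + 1) and without the highest cells. On CD it was 4 in normalized counts and without cells of high glial RNA, 3 by summed counts, by medians and without the highest cells, and 2 without the genes counted in every cell and by mean log2(CPM + 1). On HFD it was 0 at equal depth, 2 by summed counts and 3 by medians and by mean log2(CPM + 1). For diet in Pomc+ cells it was 2 in normalized counts, by summed counts and without cells of high glial RNA, and 0 by mean log2(CPM + 1). For diet in Ghost cells it was 0 without the genes counted in every cell and by summed counts, and 4 by mean log2(CPM + 1). Leaving out 1 cell gave 1 to 2 over both diets, 0 to 3 on CD, 1 to 2 on HFD and 0 to 2 for diet within each label. At equal depth *Uchl1* and *Gap43* were counted in 100% of Ghost CD cells, but over 20 draws *Gap43* ran from 83.3% to 100%. The cause of these shifts was not tested. Shares of rarely counted genes are limited by depth, as 8 cells had under 40000 counts. No paired analysis was possible because each cell has a number of its own and no result comes from a test.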
